A study of Mus musculus with 36 samples.

Results

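The transcripts of 9 structural microtubule-associated proteins were followed in ribosome-protected fragments (RPFs) and RNA of mouse brain: Map1a, Map1b, Map1s, Map2, Map4, Mapt (tau), Mapre1, Mapre2 and Mapre3. They were chosen by gene symbol, with earlier results of these data known. They are 9 of the 16614 genes in the count table, and all 9 passed the filter on low counts in every comparison.

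Positions are given in GRCm38, and no position is given for Mapre2 (ENSMUSG00000024277). Map1b (ENSMUSG00000052727) is at chr13:99421446-99516540 on the minus strand, and the genes named next are on the plus strand. Map1a (ENSMUSG00000027254) is at chr2:121289600-121310832, Map1s (ENSMUSG00000019261) at chr8:70905932-70917529, and Map2 (ENSMUSG00000015222) at chr1:66175273-66442583. Map4 (ENSMUSG00000032479) is at chr9:109931460-110083955, Mapt (ENSMUSG00000018411) at chr11:104231390-104332090, Mapre1 (ENSMUSG00000027479) at chr2:153741274-153773310 and Mapre3 (ENSMUSG00000029166) at chr5:30814641-30866106.

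These proteins set the stability and growth of microtubules in neurons. The Map1 proteins are long polyproteins that are cut into a heavy and a light chain, and Map1b, made early in growing axons, has one of the best known mRNAs bound by FMRP, the protein encoded by Fmr1. Map2, tau and Map4 share a set of microtubule-binding repeats, with Map2 typical of dendrites, tau of axons and Map4 of many cell types. The Mapre genes encode the EB proteins, which track growing plus ends and recruit other proteins there. Neuronal RNA granules carry mRNAs with stalled ribosomes along microtubules, and the study asked whether the loss of FMRP changes which mRNAs the granules hold and where ribosomes stall on them.

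Brains of C57BL/6 (WT) and FMR1-KO (FMR1 KO) mice aged 5 days were used, with 10 brains pooled in each preparation. Sucrose gradients gave a pellet, which the labels call RNA granule, and fraction 5/6, which holds ribosome clusters that do not pellet. RPFs were sequenced from both, and RNA from whole brain homogenate, with 3 libraries in each group and 36 in all. Each genotype was prepared in the standard way (10 mM MgCl2, more nuclease, at room temperature) and the low nuclease way (2.5 mM MgCl2, less nuclease, in the cold), and effects of magnesium, nuclease and temperature cannot be told apart. The study treats the libraries of a group as biological preparations, and p-values measure the spread between them. The mice lack FMRP in all cells, and whole brain mixes cell types, so fewer cells of a type and less RNA per cell cannot be told apart.

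Total counts per library were 6765065 to 40174168 in the standard RPFs, 23634940 to 62310787 in the low nuclease RPFs and 41586791 to 147216378 in the RNA. Cdk8 alone took 36.7% to 63.4% of the standard RPF counts, so levels are given in CPM, the counts of a gene scaled to the same library total once Cdk8 is left out. Fmr1 had 64.6 to 67.8 CPM in the WT pellets and 4.79 to 4.93 CPM in the FMR1 KO pellets. It had 100.1 and 68.6 CPM in 2 WT libraries of fraction 5/6, and 3.17 CPM in the library labelled WT fraction 5/6 replicate 3. Over all genes the closest library to this one was FMR1 KO pellet replicate 3 (r = 0.959), against 0.928 with its own group, so levels are given for each library and the tests on WT fraction 5/6 with and without it. All 4 neuron markers tested (Tubb3, Stmn2, Snap25 and Rbfox3) were above 0 in every library, with summed levels of 4144 to 5524 CPM in the WT pellets and 3626 to 5470 CPM in the FMR1 KO pellets. The markers tested for astrocytes, the oligodendrocyte lineage, microglia, endothelium and red blood cells were also above 0 in every library. FMR1 KO pellet replicate 2 held the smallest share of counts from the 9 genes among the standard pellets, 0.964% against 1.67% to 1.87% in the others.

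Map1b had the highest level of the 9 in the pellet and stood there at 9962, 9411 and 10342 CPM in the WT libraries. In the FMR1 KO pellets it stood at 11468, 5086 and 10870 CPM. The second of these libraries was low, so that the WT values lay within the FMR1 KO range. In fraction 5/6, Map1b had 1354, 1673 and 2338 CPM in FMR1 KO. In WT it had 1293 and 1007 CPM, and 10317 CPM in the library labelled replicate 3. This library was as high as the pellets, and all other libraries of fraction 5/6 were below every pellet. In RNA, Map1b had 3708, 4768 and 4496 CPM in WT and 5374, 4030 and 5299 CPM in FMR1 KO, values that overlapped. Among protein-coding genes it ranked between 6 and 10 in the standard pellets, apart from rank 30 in FMR1 KO pellet replicate 2, and between 4 and 8 in the standard RNA.

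Map1a, the relative of Map1b that becomes prominent in dendrites as neurons mature, had 1141, 1238 and 1494 CPM in the WT pellets. In the FMR1 KO pellets it had 1111, 677 and 1297 CPM. In fraction 5/6 it had 121, 149 and 193 CPM in FMR1 KO, and 117 and 115 CPM in WT with 1298 CPM in the library labelled replicate 3. Apart from that library, every pellet value was above every value of fraction 5/6, as for Map1b and for 4.57% of 6540 protein-coding genes with a mean of at least 10 CPM in every standard group. Map1s, the short and widely expressed member of the family, was lower, with 59.0 to 121 CPM over the 6 standard pellets. It had 32.6 to 67.5 CPM over the FMR1 KO libraries of fraction 5/6, and 52.4, 38.6 and, in the library labelled replicate 3, 125 CPM in WT. In FMR1 KO the 2 fractions overlapped for Map1s, through the 59.0 CPM of pellet replicate 2.

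The other members, apart from Map2 in WT, had levels in fraction 5/6 that were close to or above those of the pellet. Map2 had 2308, 2539 and 2259 CPM in the WT pellets. In WT fraction 5/6 it had 1809 and 1584 CPM, and 2212 CPM in the library labelled replicate 3. In FMR1 KO it had 2851, 1687 and 2349 CPM in the pellets and 2262, 2675 and 3654 CPM in fraction 5/6. The fractions overlapped in FMR1 KO and not in WT. With the library labelled replicate 3 kept, 2.29% of the same 6540 genes had every WT pellet above every WT library of fraction 5/6. Mapt ran from 1262 to 2291 CPM over the standard pellets and from 1640 to 3364 CPM over fraction 5/6, and Map4 from 405 to 658 CPM and from 451 to 1071 CPM. Of the EB genes, Mapre2 had 246 to 383 CPM in the standard pellets, Mapre1 134 to 189 CPM and Mapre3 79.3 to 129 CPM. Over both genotypes the pellet and fraction 5/6 ranges of these 5 genes overlapped. Within FMR1 KO, every library of fraction 5/6 was above every pellet for Map4 (669 to 1071 CPM), Mapre1 (248 to 327 CPM), Mapre2 (388 to 536 CPM) and Mapre3 (120 to 197 CPM), and the ranges overlapped for Mapt. Of the 6540 genes, 27.3% also had every FMR1 KO library of fraction 5/6 above every FMR1 KO pellet.

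Levels of different genes were compared per kilobase of merged coding sequence. On this scale the WT pellet held 1331 ± 62.9 CPM per kb of Map1b, 827 ± 157 of Mapt, 397 ± 25.1 of Map2, 318 ± 33.5 of Mapre2, 199 ± 29.1 of Mapre1, 143 ± 20.2 of Map1a, 131 ± 21.7 of Mapre3, 68.6 ± 11.2 of Map4 and 26.9 ± 3.15 of Map1s (SD, n = 3). The ranges of neighbours in this order did not overlap, except for Map1a and Mapre3. Merged lengths join the isoforms of a gene. For Map4 this gave 8180 bases, while the transcript on which its peaks were listed has 1126 codons. The place of Map4 in this order thus rests on the merged length. Per kilobase of exon in the WT RNA, Map1b (273 ± 34.8) and Mapt (273 ± 46.5) were level, so the lead of Map1b over Mapt per kb appeared in the pellet RPFs and not in the RNA. In the FMR1 KO fraction 5/6, Mapt led with 1115 ± 332 CPM per kb and Map1b had 240.2 ± 67.5 (SD, n = 3).

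**Figure D1:**
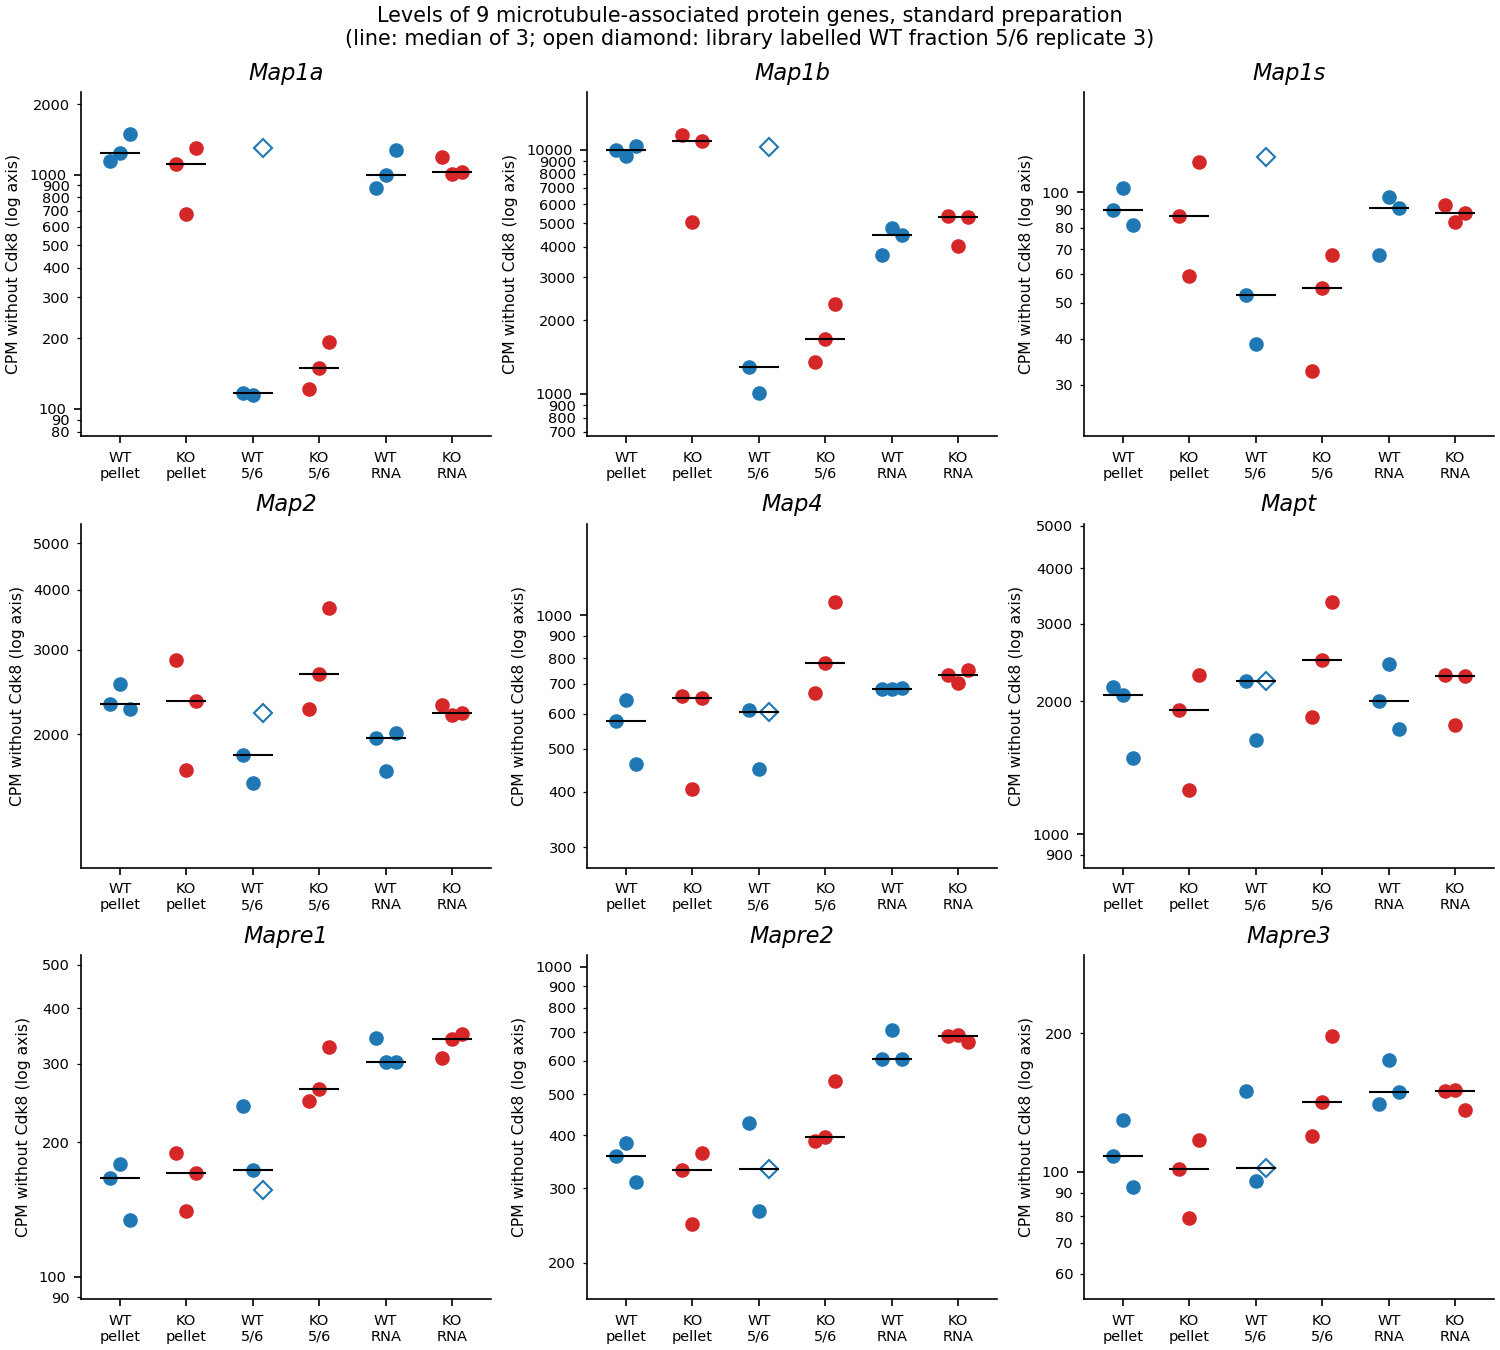
CPM without Cdk8 (log axis) of the 9 genes in the standard preparation, 1 point per library, with a line at the median of 3; blue is WT, red is FMR1 KO, and the open diamond is the library labelled WT fraction 5/6 replicate 3. Map1b is at 9411 CPM or more in the pellets, apart from 5086 CPM in 1 FMR1 KO library, and at 1007 to 2338 CPM in fraction 5/6 apart from the open diamond. Map4, Mapt and the Mapre genes have pellet and fraction 5/6 points close together or higher in fraction 5/6. Map2 is higher in the WT pellets than in WT fraction 5/6, and its fractions overlap in FMR1 KO.

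In enrichment, the pellet RPFs against those of fraction 5/6, Map1 genes were the only members called higher in any of the fits. No test compared them with the other members. In FMR1 KO, Map1a was 8.09-fold higher in the pellet (log2 fold change 3.02 ± 0.21 standard error, adjusted p = 0.00127 by edgeR's quasi-likelihood test). Map1b was 6.21-fold higher (2.64 ± 0.41, adjusted p = 0.0110) and Map1s 2.11-fold higher (1.08 ± 0.20, adjusted p = 0.0206). These 3 of 9 members were called higher and 0 were called lower by edgeR, where 9.11% of the 13235 genes tested were called higher and 2.41% lower. Mapre1 (−0.44 ± 0.16) and Mapre3 (−0.31 ± 0.11) passed at an unadjusted p only, and DESeq2 called Mapre1 lower. Map2, Map4, Mapt and Mapre2 lay between −0.26 and −0.01, with 95% intervals that reached from −0.80 to 0.64.

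By size of the change in FMR1 KO, Map1a ranked 122, Map1b 164 and Map1s 1134 among the 13235 genes. Map1a was called whichever single library was left out (adjusted p 0.00117 to 0.0156). Map1b missed the threshold without FMR1 KO pellet replicate 1 (2.47, adjusted p = 0.0505) or fraction 5/6 replicate 1 (2.60, adjusted p = 0.0748). Map1s missed it without pellet replicate 1 or 3, or fraction 5/6 replicate 1 or 3 (adjusted p 0.0642 to 0.0737). With library size as the only scaling, the same 3 genes had changes of 2.50, 2.11 and 0.55 in FMR1 KO and none was called, where 1.02% of all genes were called higher and their median moved from −0.04 to −0.60.

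In WT with all 3 libraries against 3, Map1a differed by 1.43 ± 0.95, Map1b by 1.33 ± 0.91 and Map1s by 0.38 ± 0.37 on the log2 scale. edgeR called 0 of 9 members, 0 passed at an unadjusted p under 0.05 and DESeq2 called 0, and over all genes 0.0153% were called higher and 0.00766% lower. Without the library labelled WT fraction 5/6 replicate 3, Map1a was 10.4-fold higher in the pellet (3.38 ± 0.32, adjusted p = 0.00803), Map1b 8.22-fold (3.04 ± 0.35, adjusted p = 0.0115) and Map1s 1.91-fold (0.93 ± 0.10, adjusted p = 0.0106). In that fit, 7.78% of 13226 genes were called higher and 1.86% lower, the 3 Map1 genes were the members called, and Mapre1 had −0.45 ± 0.12 (adjusted p = 0.0880).

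The low nuclease libraries are separate libraries and gave a further look at the same contrast. In the low nuclease pellets, Map1b had 9458, 9832 and 8307 CPM in WT and 10877, 7216 and 7559 CPM in FMR1 KO. In fraction 5/6 it had 2221, 2579 and 1054 CPM in WT and 2168, 1557 and 1614 CPM in FMR1 KO. Every pellet library was above every library of fraction 5/6. Map1a had 830 to 983 CPM in these pellets and 123 to 194 CPM in fraction 5/6, and Map1s 92.3 to 121 and 43.1 to 76.3 CPM, again with no overlap. Of 8230 protein-coding genes with a mean of at least 10 CPM in each of these 4 groups, 905 had every pellet above every library of fraction 5/6.

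In WT with low nuclease, Map1a was 6.85-fold higher in the pellet (2.78 ± 0.21, adjusted p = 0.00406), Map1b 5.05-fold (2.33 ± 0.45, adjusted p = 0.0195) and Map1s 2.14-fold (1.10 ± 0.22, adjusted p = 0.0206). Mapre1 was 1.37-fold lower (−0.45 ± 0.12, adjusted p = 0.0399). Thus 3 members were called higher and 1 lower, where 14.3% of 15564 genes were called higher and 8.6% lower. In FMR1 KO with low nuclease, Map1a was 5.95-fold higher (2.57 ± 0.17, adjusted p = 0.00680), Map1b 5.52-fold (2.46 ± 0.34, adjusted p = 0.0136) and Map1s 1.61-fold (0.69 ± 0.15, adjusted p = 0.0275). Mapre3 was 1.31-fold lower (−0.39 ± 0.09, adjusted p = 0.0334), and the background was 8.82% of 15556 genes higher and 11.8% lower.

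Map1a was called in both low nuclease fits whichever library was left out. In WT, Map1b missed the threshold without pellet replicate 1 or 3 or fraction 5/6 replicate 1 (adjusted p 0.0555 to 0.0630), and Map1s without pellet replicate 1, 2 or 3 or fraction 5/6 replicate 1 (0.0570 to 0.0629). In FMR1 KO, Map1b missed it without fraction 5/6 replicate 3 (adjusted p = 0.0615), and Map1s without pellet replicate 2 or fraction 5/6 replicate 1, 2 or 3 (0.0682 to 0.0741). With all groups in one fit the calls of Map1s were lost in WT (1.09, adjusted p = 0.141) and FMR1 KO (0.72, adjusted p = 0.353). The call of Mapre1 in WT was lost without any single library (adjusted p 0.0663 to 0.131). That of Mapre3 in FMR1 KO was lost without any single library (up to 0.126) except pellet replicate 1 (0.0472).

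**Figure D2:**
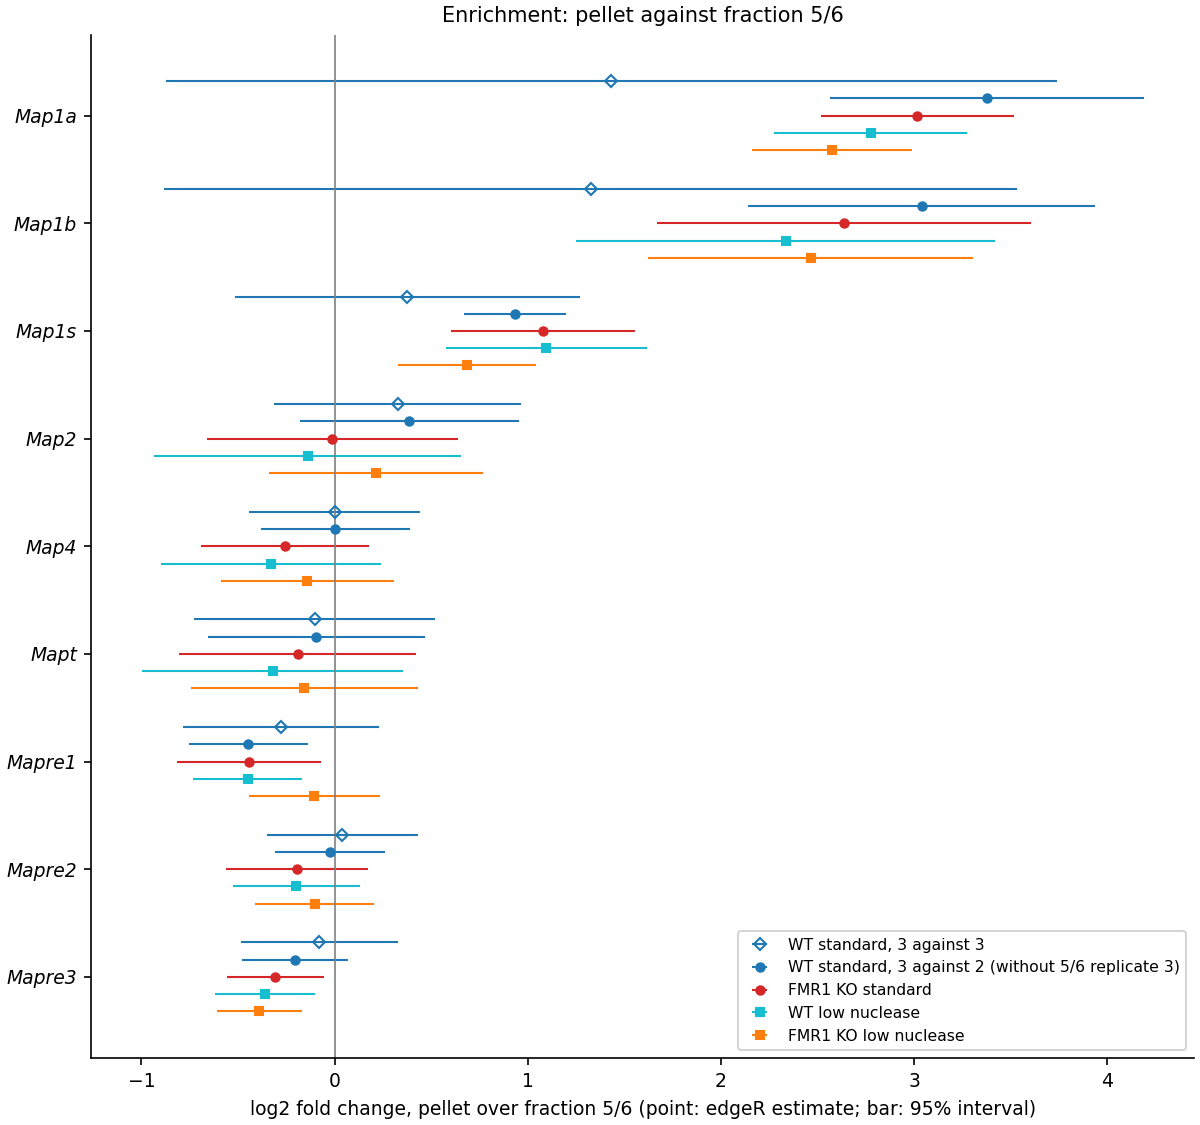
Log2 fold change of pellet RPFs over fraction 5/6 RPFs for the 9 genes, as edgeR estimates with bars for the 95% interval; colours mark genotype and preparation, and the open diamonds hold all 3 WT libraries against 3. Map1a and Map1b lie between 2.33 and 3.38 in the 4 fits without the library labelled WT fraction 5/6 replicate 3, Map1s between 0.69 and 1.10, and the other 6 genes between −0.45 and 0.39.

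Long coding sequences were commonly higher in the pellet, and coding length was set beside the members for this reason. In FMR1 KO with standard nuclease, the median log2 enrichment was −0.33 for genes with under 1 kb of coding sequence, 0.57 from 3 to 6 kb and 1.27 at 6 kb or more, where 62.2% of 429 genes were called higher. Map1a (9042 bases) ranked 18 and Map1b (7443 bases) ranked 37 among those 429 genes. Map4 was in the same class by its merged coding length of 8180 bases and ranked 409, although the transcript on which its peaks were listed has only 1126 codons. Map2, with 5968 merged bases, ranked 1469 of the 1722 genes of 3 to 6 kb, and Map1s, with 3387 bases, ranked 411.

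With low nuclease, Map1a and Map1b again ranked high and Map4 low in the longest class. In WT, Map1a ranked 12, Map1b 35 and Map4 439 among 471 genes of 6 kb or more, with a class median of 1.00. In FMR1 KO they ranked 8, 12 and 438 among 472, with a class median of 0.92. Map1s ranked 403 of 1909 in WT and 714 of 1910 in FMR1 KO, and Map2 1655 and 1341 of the same genes. In FMR1 KO with standard nuclease, Mapre1 (804 bases) had −0.44 and Mapre3 (843 bases) −0.31, against the class median of −0.33. In WT with low nuclease they had −0.45 and −0.36 against −0.29. In FMR1 KO with low nuclease Mapre3 (−0.39) was near the class median of −0.41, and Mapre1 (−0.11) was above it at rank 966 of 4542. The part of coding length in the members' enrichment was not tested.

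**Figure D3:**
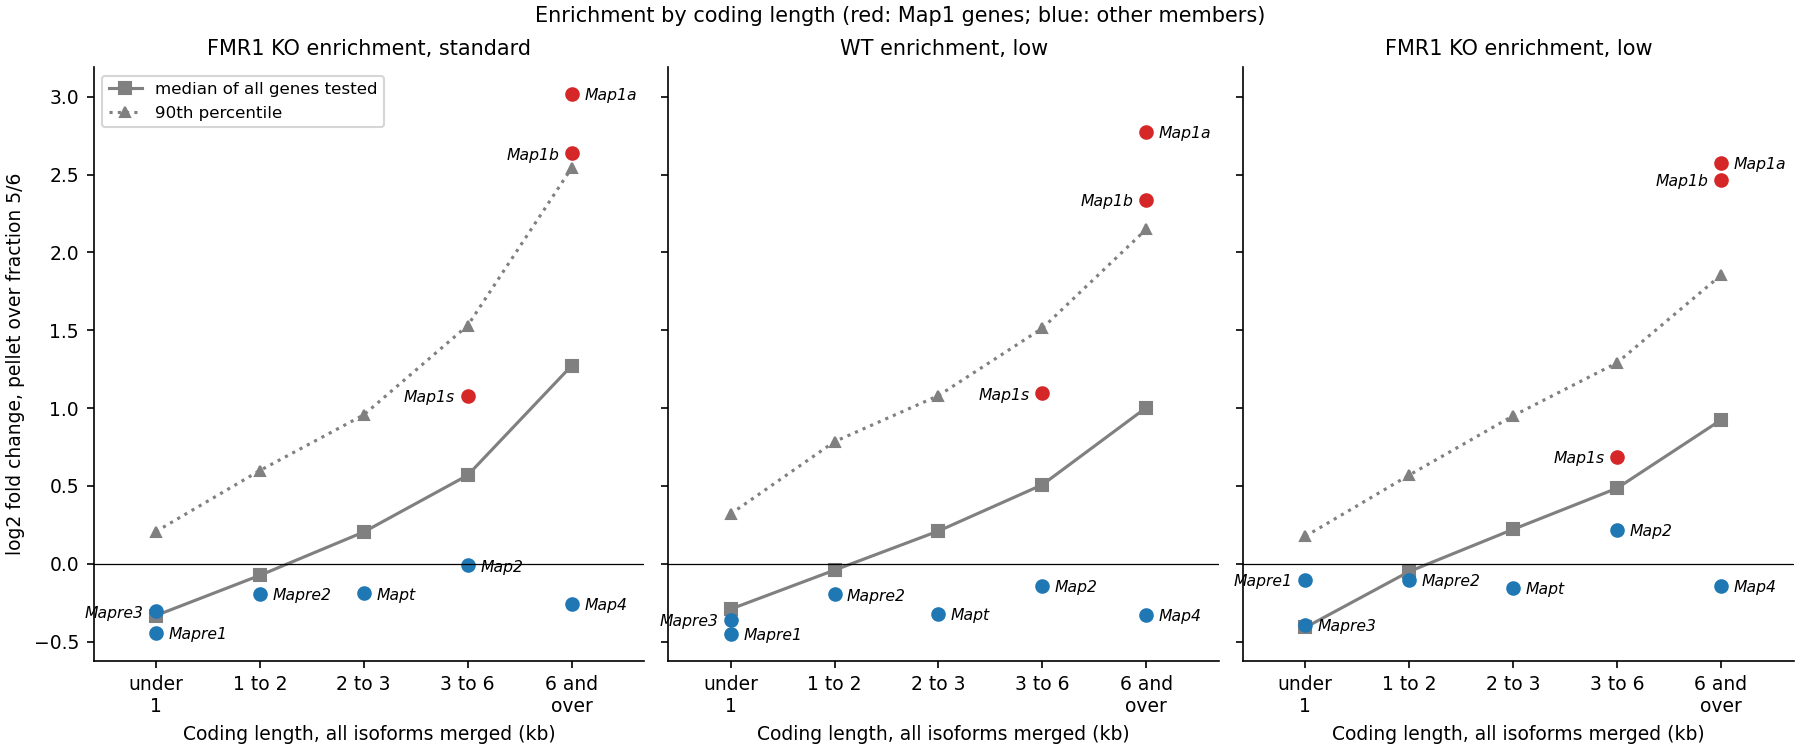
Log2 enrichment against class of merged coding length, with grey squares for the median and triangles for the 90th percentile of all genes tested, red points for the Map1 genes and blue points for the other members. The median climbs from −0.33 under 1 kb to 1.27 at 6 kb or more in FMR1 KO with standard nuclease; Map1a and Map1b lie above the 90th percentile of their class (2.54) and Map4 lies below its median.

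Occupancy, the pellet RPFs against RNA, was called above 0 for 7 of the 9 members, and in both genotypes all 9 lay above the median of all genes. A few genes took a large share of the RPF counts (the top 10 took 55.0% to 71.3% of the standard pellet counts and 4.97% to 7.16% of the RNA counts), and the fit scales libraries by the bulk of genes (TMM), so its fold change is not the ratio of the CPM values above. In WT, Map1b was 5.13-fold higher in the pellet RPFs than in RNA (2.36 ± 0.20, adjusted p = 4.11e-05), and it ranked 603 of 16139 genes. Map2 followed at 2.80-fold (1.49 ± 0.14), then Map1a at 2.77-fold (1.47 ± 0.21), Map1s at 2.38-fold (1.25 ± 0.15), Mapt at 2.05-fold (1.03 ± 0.20), Map4 at 1.82-fold (0.86 ± 0.13) and Mapre3 at 1.57-fold (0.65 ± 0.13), with adjusted p from 7.68e-05 to 0.00348. Mapre1 (0.16 ± 0.12) did not pass. Mapre2 (0.28 ± 0.13) did not pass in edgeR (adjusted p = 0.0963) and passed in DESeq2 (0.0398), with all groups in one fit (0.0154) and without WT RNA replicate 2 (0.0461). So 7 members were called higher and 0 lower in WT, where 31.2% of genes were called higher and 34.3% lower. RPFs come mainly from coding sequence and RNA from all exons, so the order of genes can depend on coding share. Mapre1 has 804 coding of 7811 exon bases, Mapre2 1102 of 10202 and Map1a 9042 of 12166. Per kb of each, WT pellet and RNA means were 199 and 40.5 CPM for Mapre1 and 318 and 62.7 for Mapre2. They were 1331 and 273 for Map1b and 143 and 86.2 for Map1a. The part of coding share was not tested.

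The same 7 genes were called higher in FMR1 KO, where 31.9% of 16106 genes were called higher and 35.2% lower. Map1b was 3.90-fold higher (1.96 ± 0.28, adjusted p = 0.000744), Map2 1.14 ± 0.18 on the log2 scale, Map1s 2.14-fold (1.10 ± 0.14), Map1a 2.02-fold (1.02 ± 0.17), Mapt 1.83-fold (0.87 ± 0.18), Map4 1.67-fold (0.74 ± 0.13) and Mapre3 1.47-fold (0.55 ± 0.10). Mapre1 had 0.12 ± 0.12 and Mapre2 −0.02 ± 0.12. These 14 calls held whichever library was left out, with adjusted p up to 0.0276. With all groups in one fit, Map1a in FMR1 KO missed the threshold (1.16, adjusted p = 0.111).

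The direction of occupancy rests on the scaling. With library size alone, the median of all genes moved from −0.11 to −2.14 in WT and from −0.07 to −2.33 in FMR1 KO, 0 members were called higher, and 8 were called lower in each genotype, all but Map1b. Of all genes 87.7% were then called lower in WT and 85.8% in FMR1 KO. A change of scaling moves all genes by nearly the same amount, so values relative to the median hardly move by construction. In WT with TMM, Map1b was 2.47 above that median, Map2 1.59 and Mapre1 0.27.

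Occupancy was also higher for long coding sequences. In WT, 55.7% of the 469 genes of 6 kb or more and 47.5% of the 1929 genes of 3 to 6 kb were called higher, and in FMR1 KO 57.7% and 49.4%. In the longest class Map1b ranked 33 in WT and 77 of 470 in FMR1 KO, Map1a 125 and 205, and Map4 213 and 253, so that in FMR1 KO Map4 (0.74) was below its class median of 0.83. Map2 ranked 371 and 561 of its class. Mapre1 and Mapre3 were above the median of their short class, −0.84 in WT and −0.80 in FMR1 KO.

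RPFs of fraction 5/6 against the same RNA libraries gave another order. In FMR1 KO, Map2 was 2.38-fold higher than in RNA (1.25 ± 0.16, adjusted p = 0.000369), Mapt 2.25-fold (1.17 ± 0.18), Map4 2.14-fold (1.10 ± 0.14), Mapre3 1.95-fold (0.96 ± 0.11) and Mapre1 1.59-fold (0.67 ± 0.14). Map1a was 3.72-fold lower (−1.90 ± 0.15, adjusted p = 3.15e-05) and Map1b 1.48-fold lower (−0.56 ± 0.18, adjusted p = 0.0276), while Map1s (0.12 ± 0.15) and Mapre2 (0.28 ± 0.14) did not pass in edgeR, and DESeq2 called Mapre2 higher (adjusted p = 0.00656). Thus 5 members were called higher and 2 lower, where 29.8% of 16120 genes were called higher and 33.1% lower. The call of Map1b was lost without fraction 5/6 replicate 1 (adjusted p = 0.0513) or without RNA replicate 1 or 3 (0.163 and 0.142). With all groups in one fit it was lost as well (−0.55, adjusted p = 0.433). Since pellet and fraction 5/6 were set against the same RNA libraries, the 2 sets of values are not independent.

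In WT, Map2 (1.11 ± 0.27), Mapt (1.09 ± 0.28), Map4 (0.82 ± 0.20) and Mapre3 (0.69 ± 0.20) were called higher in fraction 5/6 than in RNA with all libraries, and 0 members were called lower by edgeR, at an unadjusted p or by DESeq2. The background was 24.7% of 16145 genes higher and 31.2% lower. Without the library labelled WT fraction 5/6 replicate 3, Mapre1 was called higher as well (0.66 ± 0.16) and Map1a was called lower (−1.86 ± 0.26, adjusted p = 0.00127), with Map1b at −0.63 ± 0.25 (adjusted p = 0.0672), where 27.9% of 16420 genes were called higher and 32.1% lower. Without WT RNA replicate 3, 0 members were called in this fit (adjusted p 0.0542 for Map4 to 0.0872 for Mapt among the 4), where 20.1% of all genes were called higher and 27.1% lower. Without RNA replicate 1, Mapt and Mapre3 missed the threshold (0.0611 and 0.0683), without RNA replicate 2 Map2 did (0.0565), and without fraction 5/6 replicate 1 or 2 Mapre3 did (0.0574 and 0.0545) while Map1s passed (0.0384 and 0.0481). With library size alone, 0 members were called higher and 8 lower in WT, and 0 higher and 5 lower in FMR1 KO, with medians of all genes of −2.25 and −1.93 in place of −0.14 and −0.11. Of all genes 83.7% were called lower there in WT and 77.2% in FMR1 KO.

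**Figure D4:**
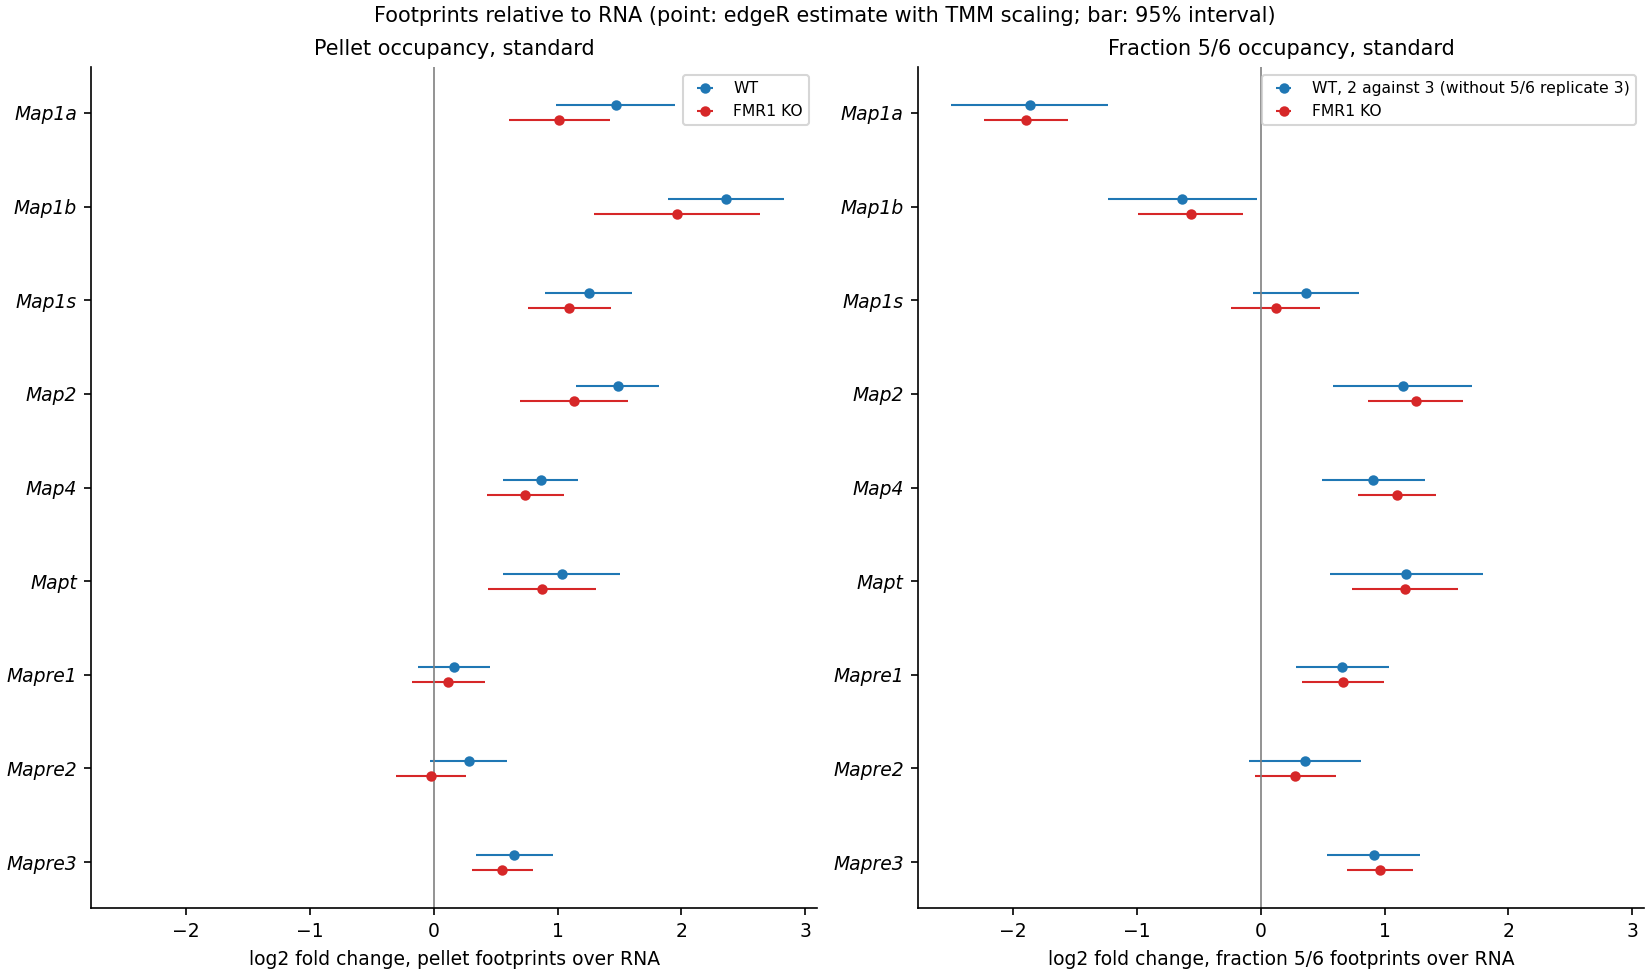
Log2 fold change of RPFs over RNA for the 9 genes in the standard preparation, as edgeR estimates with TMM scaling and 95% intervals, with WT fraction 5/6 fitted without the library labelled replicate 3. Map1b leads in the pellet at 2.36 in WT and 1.96 in FMR1 KO, and Map1a falls from 1.02 in the FMR1 KO pellet to −1.90 in FMR1 KO fraction 5/6, while Map2, Map4, Mapt and Mapre3 lie above 0 in both.

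The loss of FMRP was compared for the members in 5 ways, and edgeR and DESeq2 called 0 of 9 in each. In RNA, Map2 had 1960, 1681 and 2011 CPM in WT and 2299, 2188 and 2220 CPM in FMR1 KO, so that all FMR1 KO libraries were higher, as for 3.27% of the 6540 genes described above. Its log2 difference was 0.28 ± 0.12 (unadjusted p = 0.0430, adjusted p = 0.999), the only member at an unadjusted p under 0.05 in any of the 5. In RNA, 0.0736% of 16307 genes were called. In abundance, the pellet RPFs of FMR1 KO against WT, Map1b differed by −0.13 ± 0.32 (95% interval −0.91 to 0.65) and Map1a by −0.33 ± 0.21 (−0.83 to 0.17), and 0.015% of 13356 genes were called.

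In the change of occupancy with genotype, Map1b had −0.36 ± 0.31 and Map1a −0.42 ± 0.26, and 0.0673% of 16345 genes were called. The 9 values ran from −0.42 to −0.01, with intervals that reached from −1.04 to 0.45. In the change of enrichment, Map1a had 1.61 ± 1.03 and Map1b 1.34 ± 1.00, and 0.0% of 13664 genes were called. Without the library labelled WT fraction 5/6 replicate 3 these became −0.34 ± 0.32 and −0.39 ± 0.42, so their sign rested on that library. In low nuclease abundance Map1b differed by 0.00 ± 0.32 (−0.78 to 0.79) and Map1a by 0.03 ± 0.14 (−0.32 to 0.39), and 0.0197% of 15240 genes were called.

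In the low nuclease preparation, 10 genes took 82.4% to 85.0% of the counts in 3 of the RNA libraries used for occupancy, replicate 2 of WT with both replicate 2 and replicate 3 of FMR1 KO. Map1b had 4985 and 5464 CPM in the other WT RNA libraries and 1873 CPM in WT replicate 2. In WT, Map2 (1.13 ± 0.37), Mapre2 (0.74 ± 0.20) and Mapre1 (0.71 ± 0.20) were called higher in the pellet than in RNA, where 24.9% of 15587 genes were called higher and 27.6% lower. In FMR1 KO, Mapre3 was called (1.14 ± 0.25, adjusted p = 0.0170), where 16.0% of 15284 genes were called higher and 12.8% lower. Map1b had 0.63 ± 0.56 in WT and 0.33 ± 0.60 in FMR1 KO, and neither passed.

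These calls changed with the RNA libraries used. Against the standard RNA libraries, Map1b (1.56 ± 0.22), Map2 (0.91 ± 0.21) and Map1s (0.87 ± 0.16) were called higher in WT, and Map1b (1.30 ± 0.24), Map2 (0.77 ± 0.16), Map1s (0.70 ± 0.12) and Map4 (0.38 ± 0.14) in FMR1 KO. Of all genes 30.9% and 27.2% were called higher there. Mapre2 and Mapre1 then had −0.13 and −0.16 in WT. Without the 3 RNA libraries named above, Map1b had 1.31 ± 0.24 in WT (adjusted p = 0.00514) and 1.17 ± 0.50 in FMR1 KO (adjusted p = 0.137), which left 1 FMR1 KO RNA library assumed to vary like the pellets. Leaving out single libraries moved the number of members called between 0 and 5 in WT, with 0 without pellet replicate 1 or 2 and 5 without RNA replicate 2. The share of all genes called higher was 20.5% and 19.6% without these pellets and 29.2% without that RNA library. In FMR1 KO it moved between 0 and 4, with 0 without pellet replicate 1, 2 or 3 or RNA replicate 2 and 4 without RNA replicate 1. All genes called higher there made up 5.94% to 9.21% in the fits with 0 members and 22.0% in the fit with 4.

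The study deposited footprint peaks, positions where RPFs pile up along a transcript, for each of the 12 standard RPF libraries. They were read on all annotated transcripts of the 9 genes, since the transcript used for Map1a, Mapt, Map4 and Mapre3 was not the one named in the count table. The members held 791 peaks, 390 in the pellets and 401 in fraction 5/6. Of these, 784 lay in coding sequence, 5 in 5′ UTRs and 0 in 3′ UTRs, and the 2 on Map2 lay on a transcript that the annotation used here does not hold. A pellet library held 53 to 88 member peaks and a library of fraction 5/6 held 58 to 80, a difference in means of −1.83 (exact permutation test, two-sided p = 0.779). It was −2.6 (exact p = 0.71) without the library labelled WT fraction 5/6 replicate 3, −6.43 (exact p = 0.182) without FMR1 KO pellet replicate 2 and 0.8 (exact p = 0.924) without WT fraction 5/6 replicate 2. Between FMR1 KO and WT the difference was 11.3 in the pellets (exact p = 0.4) and −9.0 in fraction 5/6 (exact p = 0.2), and the smallest p that such groups of 3 can give is 0.1. The first was 2.67 (exact p = 0.7) without FMR1 KO pellet replicate 2, and the second −13.2 (exact p = 0.2) without the library labelled WT fraction 5/6 replicate 3 and −4.67 (exact p = 0.5) without WT fraction 5/6 replicate 2. The libraries held 11389 to 36435 peaks over all genes. As a share of these, member peaks differed by −0.125 percentage points between pellet and fraction 5/6 (exact p = 0.201), and between FMR1 KO and WT by 0.0748 in the pellets (exact p = 0.6) and 0.0136 in fraction 5/6 (exact p = 0.9), so that the sign in fraction 5/6 turned.

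Peak density did not follow footprint level. Per library and kilobase of coding sequence, Mapre1 held 16.6 peaks, Mapre2 13.4, Mapre3 9.26, Map4 5.48, Mapt 1.93, Map1s 0.799, Map1a 0.470 and Map1b 0.270. Map1b, with 115067 to 211936 counts, had 0 peaks in each WT pellet. In the FMR1 KO pellets it had 1, 9 and 0 peaks, and the 9 were in replicate 2, where Map1b had its lowest pellet count of 63750. In fraction 5/6 it had 1, 10 and 0 peaks in WT, the last in the library labelled replicate 3, and 1 in each FMR1 KO library. Few peaks at very high counts were seen for all genes: with 1000 to 3000 counts 74.3% to 80.5% of genes had a peak, and with at least 100000 counts 0% to 50.0% had one. The absence of a peak thus does not say that ribosomes were evenly spread, and Map1b peaks cannot be compared between genotypes here.

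Sites shared by every pellet were all on Mapre1. Peaks whose centres lay within 6 nt were taken as 1 site, which gave 336 sites on the 9 genes. Of these, 7 were found in all 6 pellets (Mapre1 codons 5, 84, 104, 119, 204, 217 and 261 of 269), and 3 of them were also in all 6 libraries of fraction 5/6. Of the 41 Mapre1 sites 41.5% were seen in 1 library only. The share was 33.3% for Mapt and 38.5% for Mapre2, and ran from 52.5% for Map4 and 56.4% for Mapre3 to 75.0% for Map1s, 85.0% for Map1b, 86.0% for Map1a and 100% for the 2 sites on Map2. A single site, at codon 84 of Map4, was in all 3 WT pellets and no FMR1 KO pellet, and 0 sites were in all 3 FMR1 KO pellets and no WT pellet. With centres matched within 3 nt these numbers were 3 and 1.

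The 3 Mapre1 sites found in all 12 libraries are shown first, since they are the most constant positions among the members. Each is 30 bases around the peak centre, 5′ to 3′ on the transcript strand (GRCm38), with capitals for AGGA or TGGA, short sequences that have been linked to FMRP-bound mRNA. The coordinate base of the peak files is not stated, so positions may be off by 1 or 2 bases.
Mapre1, codon 119, exon 4, chr2:153758000-153758029, plus strand: tttgatgcaaattatgaTGGAaaagagtat
Mapre1, codon 204, exon 6, chr2:153764947-153764976, plus strand: gtcaaagtactgaagcttactgttgaagac
Mapre1, codon 261, exon 7, chr2:153766890-153766919, plus strand: ctgatgaagggggcccacAGGAGGAacaag

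Their median heights in the pellets were 56.0, 96.5 and 78.0 reads. AGGA or TGGA, searched on the transcript strand only, was present at codons 119 and 261 and in 4 of the 7 sites shared by all pellets. It was present in 147 of 357 windows around member peaks of the pellets (41.2%), in 40.1% of the windows around all pellet peaks, in 38.9% of consecutive windows of the same length in the members' coding sequences, and in 36.8% of such windows in all transcripts with a peak. The share at member peaks was close to that at all peaks.

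Mapre1 and Mapre3 encode close relatives, and 70.8% of their aligned coding bases are identical, with no identical run longer than 20 bases. Their sites in at least 4 pellets were set side by side after the peaks had been seen. Of 10 such sites on Mapre1 and 5 on Mapre3, 2 pairs lay within 6 nt in the alignment, and 0 pairs did between Mapre1 and Mapre2, which has 5. Between Mapre2 and Mapre3, with 70.0% identity and an identical run of 26 bases, 0 pairs did either, and 2 of the 5 Mapre2 sites lay on an aligned base. How many pairs would match by chance was not tested. The members of the 2 pairs of Mapre1 and Mapre3 are shown, and the first Mapre1 site is codon 119 above.
Mapre3, codon 121, exon 4, chr5:30863283-30863312, plus strand: acgcaaactatgaTGGAaAGGAttacaacc
Mapre1, codon 63, exon 3, chr2:153755984-153756013, plus strand: aagaaagtgaaattccaagctaagctagaa
Mapre3, codon 64, exon 3, chr5:30862554-30862583, plus strand: aaggtcaagttccaggccaaactagaacac

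Peaks on tau and Map4 fell in parts of the coding sequence listed for them. Of the 51 Mapt peaks, 0 lay in the first part of 3 equal parts of the coding sequence, 9 in the second and 42 in the last. Map4 was the opposite, with 130, 92 and 0. These counts rest on 1 listed transcript for each gene, of 734 codons for Mapt and 1126 for Map4. Which isoforms were present in the brain was not tested, and parts that are absent from the mRNA cannot carry peaks. The site seen in most libraries was codon 558 for Mapt (8 libraries), codon 309 for Map4 (7 libraries), codon 727 for Map1a (4 libraries) and codon 1875 for Map1b (3 libraries, 2 of them FMR1 KO pellets). These 4 sites are printed as the best supported position of each gene.
Mapt, codon 558, exon 9, chr11:104310496-104310525, plus strand: tctactgagaacctgaagcaccagccAGGA
Map4, codon 309, exon 7, chr9:110034621-110034650, plus strand: acAGGAacagaggcagcccacgctaacaat
Map1a, codon 727, exon 5, chr2:121300871-121300900, plus strand: aaggTGGAcaaaggccgagctgcccgtggg
Map1b, codon 1875, exon 5, chr13:99430573-99430602, minus strand: gcctgagaatgccgccggatctccagatga

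**Figure D5:**
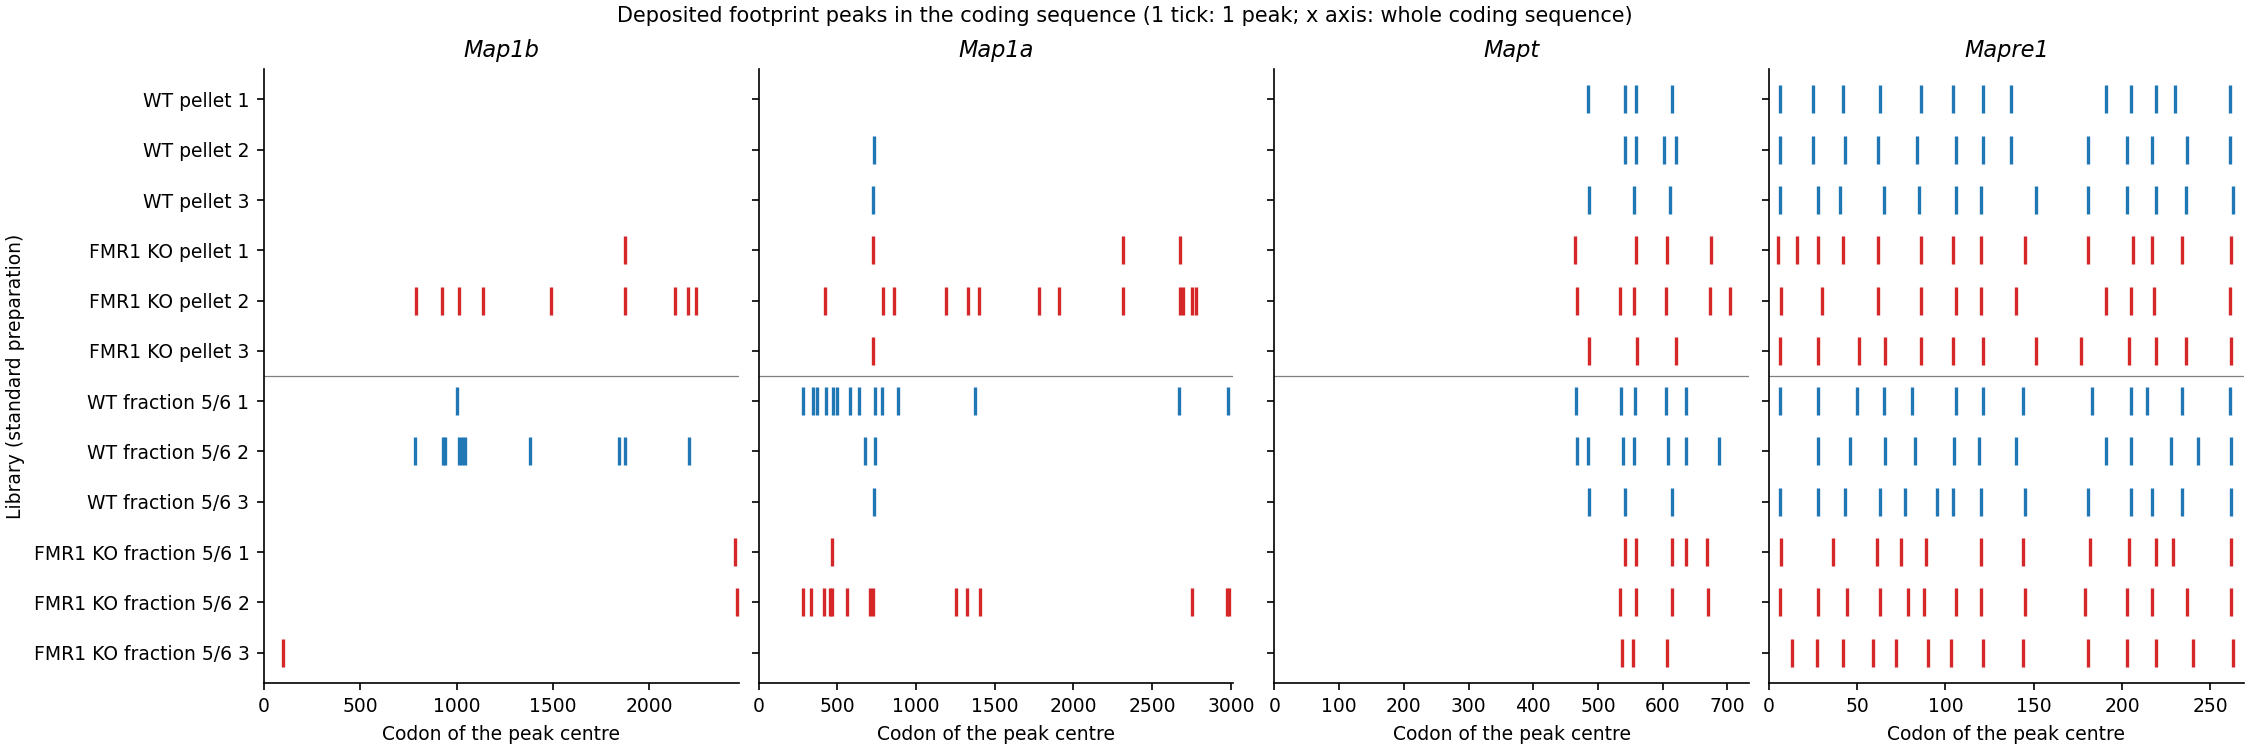
Positions of deposited RPF peaks along the coding sequence (x axis: codon of the peak centre) of Map1b, Map1a, Mapt and Mapre1, 1 row for each of the 12 standard RPF libraries and 1 tick for each peak; blue is WT and red is FMR1 KO. Mapre1 ticks line up across libraries, Mapt ticks fall in the later part of the sequence, and Map1b has 24 peaks in all, 19 of them in 2 libraries.

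Other microtubule regulators were read from 4 lists, of which none had a gene called with genotype in any of the 5 comparisons. In enrichment in FMR1 KO with standard nuclease, plus-end and minus-end proteins, which work with the EB proteins at microtubule tips, had 6 of 18 genes called higher and 0 lower, with a median of 0.29 against −0.04 for all genes, of which 9.11% were called higher and 2.41% lower. With low nuclease the same list had 8 higher and 1 lower in WT (median 0.49 against −0.02 for all genes, background 14.3% and 8.6%) and 9 higher and 0 lower in FMR1 KO (0.36 against −0.04, background 8.82% and 11.8%). Nav1, a neuron navigator, was called in all 3 (1.68, 1.48 and 1.27), and Ckap5, a microtubule polymerase, was called in FMR1 KO with both preparations (1.30 and 1.20) and had 0.99 (adjusted p = 0.0505) in WT, a difference that was not tested. Clip1, a plus-end linker, was called with 0.93, 0.42 and 0.70. In FMR1 KO with standard nuclease, 34.1% of all genes of 3 to 6 kb of coding sequence and 62.2% of those of 6 kb or more were called higher. The part of coding length in the calls of this list was not tested.

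The other lists had few calls in the same contrasts, where 9.11%, 14.3% and 8.82% of all genes were called higher and 2.41%, 8.6% and 11.8% lower. Lattice-binding and bundling proteins had 1 of 15 genes higher and 0 lower in FMR1 KO with standard nuclease, 0 and 2 in WT with low nuclease, and 0 and 3 in FMR1 KO with low nuclease, with medians of −0.15, −0.23 and −0.15. Map1lc3a, a ubiquitin-like autophagy protein that was first found with the Map1 proteins, had −0.42, −0.48 and −0.99, of which the last was called. Destabilising and severing proteins had 1 of 12 higher in each contrast, which was Fignl1, a severing ATPase (0.93, 0.91 and 0.89), and 0, 1 and 1 lower. Kinases that phosphorylate the members had 0 of 10 higher and, in FMR1 KO with low nuclease, 3 lower, among them Gsk3a, a tau kinase (−0.63).

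In WT occupancy of the pellet, 12 of the 18 plus-end and minus-end genes were called higher and 3 lower (median 0.52 against −0.11 for all genes), 7 of 15 and 4 among the lattice-binding genes (0.09), 7 of 12 and 3 among the destabilising genes (0.84) and 2 of 10 and 3 among the kinases (−0.02). Of all genes 31.2% were called higher and 34.3% lower there. Map1lc3b, the relative of Map1lc3a on autophagosomes, had 9.07, 4.91 and 2.60 CPM in the WT pellets and 240, 227 and 217 CPM in WT RNA (−4.19), far apart in every library. Of the other named genes, Map7d2 (1.29) and Stmn4 (1.88) were called higher, Mapk8 too (0.43), and Gas2l1 (−3.07), Gsk3a (−1.24), Mark4 (−0.93) and Cdk5r1 (−0.45) lower. Single libraries set some of the largest values. Camsap3, a minus-end protein, ran from 91.7 to 22820 CPM over the 12 standard RPF libraries and from 92.1 to 131 CPM in RNA. Clip1 had 1152, 74.8 and 112 CPM in the WT pellets and Katnal1, a severing subunit, had 372, 48.1 and 853 CPM. Stmn1, which binds free tubulin, was called lower in pellet RPFs than in RNA (−1.64), with 138, 177 and 101.7 CPM in the WT pellets and 1077, 966 and 820 CPM in WT RNA.

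The genes whose profile over the 18 standard libraries was most like that of Map1b were Ift172, a transport protein of cilia (r = 0.994), Dmxl2, of synaptic vesicles (0.994), Prpf8, the core splicing factor (0.993), Fasn, the fatty acid synthase (0.993), and Kif5a, a kinesin motor (0.992). The correlation is over log2 CPM of 18 libraries that share fractions, depth and genotype, among 6539 genes, and is given as a description. Their coding lengths were 3081 to 9162 bases, and their enrichment in FMR1 KO was 2.23 to 3.00. Over 17 libraries, leaving out the one labelled WT fraction 5/6 replicate 3, the 5 values were 0.991 to 0.994 and Map1a had 0.919. Among the members, Map1a ranked 165 (r = 0.920, and 0.992 over the 12 RPF libraries alone), Map1s 280 (0.861) and Map2 1977 (0.228), while Mapre1 was negative (−0.39).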

How the data were processed

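The authors trimmed reads with cutadapt 2.10, aligned them to GRCm38 with STAR 2.7.8a after filtering with Bowtie2 2.3.5, used Picard and SAMtools 1.19.2, and counted reads per gene with featureCounts 2.2.0 (versions per the labels). The count table they deposited holds raw whole numbers. Peaks were called by the authors in each library, and each deposited peak height is a signal in reads that is not scaled between libraries. All 36 count columns were used.

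Counts were tested with edgeR 4.0.16 (TMM, filterByExpr, quasi-likelihood test, Benjamini-Hochberg over all genes tested, threshold 0.05) in R 4.3.3 on 16561 protein-coding genes of the compared groups, with biotypes, coding lengths and exons from GENCODE M21 (the authors used a later Ensembl release of the same build). Alternatives were DESeq2 1.42.0, library size alone, no low-count filter, counts without Cdk8, all groups in one fit, a replicate block, other RNA libraries and leaving out each library. The 95% intervals come from the quasi-likelihood fit and include the spread between libraries. Peak counts were compared by exact permutation tests, two-sided, in Python 3.11.15 with NumPy 2.4.6, and peak centres were matched within 6 nt. All 9 members were named in each comparison, with up to 4 genes a list (largest absolute change among those called in WT pellet occupancy) and the 5 genes most like Map1b (mean CPM of at least 10 in every standard group, log2 of CPM + 1). Members, lists and tests were chosen with earlier results of these data known.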

Additional observations from a re-analysis of the deposited data

Results flagged for a closer look

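Mapre1 in fraction 5/6 moved in opposite directions with genotype in the 2 preparations. With standard nuclease it had 248, 264 and 327 CPM in FMR1 KO and 241, 174 and 156 CPM in WT, so that every FMR1 KO library was higher (log2 ratio of means 0.56). With low nuclease it had 285, 260 and 247 CPM in FMR1 KO and 291, 293 and 322 CPM in WT, so that every FMR1 KO library was lower (−0.20). The low nuclease ratio minus the standard ratio was −0.75 on the log2 scale, and the difference was not tested. The lowest standard WT value came from the library labelled WT fraction 5/6 replicate 3. Without it the standard ratio was 0.43 and the difference −0.63. The rule asked for ranges that did not overlap in either preparation, and no other member met it. Of 6931 protein-coding genes with a mean of at least 10 CPM in all 4 groups of fraction 5/6, 69 (0.996%) had every FMR1 KO library higher with standard nuclease and lower with low nuclease. Over these genes the median log2 ratio of FMR1 KO to WT was 0.28 with standard and 0.02 with low nuclease.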

How the results depend on the processing

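Leaving out the low-count filter or Cdk8 kept all counts of called members within 1.5 times. With library size alone, members called higher fell to 0 in pellet and fraction 5/6 occupancy of both genotypes, in FMR1 KO enrichment and in low nuclease occupancy of both genotypes (1.54% and 1.17% of all genes in the last), and those called lower became 8 in WT and FMR1 KO pellet occupancy, 8 and 5 in WT and FMR1 KO fraction 5/6 occupancy, and 2 and 3 in WT and FMR1 KO low nuclease enrichment (12.5% and 27.4% of all genes). The log2 fold changes that reversed with library size alone, in the order Map2, Mapt, Map1s, Map4, Mapre3, Mapre1, were −0.54, −0.99, −0.77, −1.15, −1.36 and −1.86 in WT pellet occupancy (with Mapre2 −1.74 and Map1a −0.57), −1.12, −1.34, −1.09, −1.49, −1.69 and −2.16 in FMR1 KO (with Map1a −1.18 and Map1b −0.22), −1.04, −1.05, −1.22, −1.32, −1.46 and −1.78 in WT fraction 5/6 (with Mapre2 −1.93), and −0.52, −0.59, −1.63, −0.67, −0.80 and −1.14 in FMR1 KO fraction 5/6 (with Mapre2 −1.51).

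Shares in parentheses are of all genes called the same way in that fit. DESeq2 called 1 member lower in FMR1 KO enrichment (3.8%), 4 higher in FMR1 KO low nuclease occupancy (19.8%), and 2 and 0 lower in WT and FMR1 KO low nuclease enrichment (12.6% and 9.45%). With all groups in one fit, 7 were higher in WT fraction 5/6 occupancy (31.9%), 1 lower in FMR1 KO fraction 5/6 occupancy (30.0%), 5 higher in FMR1 KO low nuclease occupancy (23.9%) and 0 lower in low nuclease enrichment of either genotype (1.14% and 0.977%). Against the standard RNA, 4 were higher in FMR1 KO low nuclease occupancy (27.2%), and Mapre2 (−0.13) and Mapre1 (−0.16) reversed in WT. Without the RNA libraries dominated by 10 genes, chosen after seeing the data, 5 were higher in WT (29.2%). The cause of these shifts was not tested. Member sites in all 6 pellets numbered 4 within 3 nt and 13 within 12 nt.

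Leaving out single libraries moved the members called from 0 to 5 higher (19.6% to 27.9%) and 0 to 1 lower (26.2% to 32.1%) in WT fraction 5/6 occupancy, 1 to 2 lower (29.5% to 32.9%) in FMR1 KO fraction 5/6 occupancy, 0 to 3 higher (0.0% to 7.78%) in WT enrichment and 1 to 3 (3.52% to 8.98%) in FMR1 KO enrichment, and 0 to 5 (19.6% to 29.2%) and 0 to 4 higher (5.94% to 22.0%) in WT and FMR1 KO low nuclease occupancy. In low nuclease enrichment they moved from 1 to 3 higher in both genotypes (5.35% to 11.6% and 1.97% to 7.0%), with 0 lower in WT (0.519% to 4.67%) and 0 to 1 lower in FMR1 KO (0.166% to 6.36%).

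Same-numbered libraries were not treated as pairs, since no set of 3 correlations of their deviations was over 0.1 throughout. With the replicate block, 2 members were called higher in WT fraction 5/6 occupancy (21.4% of all genes), where Map2 (adjusted p = 0.0536) and Mapt (0.0539) lost their calls. In FMR1 KO fraction 5/6 occupancy 1 was called lower (30.3%), and Map1b lost its call (0.0679). The enrichment of Map1b in FMR1 KO had an adjusted p of 0.0623 with the block.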
